A study of Rattus norvegicus with 24 samples.

Results

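The metabotropic glutamate receptor genes were followed on expression arrays of rat tissue that the study describes as midbrain. The arrays covered paced mating and removal of the ovaries and adrenals. The members were Grm2, Grm3, Grm4, Grm5, Grm7 and Grm8. They were taken as every probe set whose only gene symbol in the array's annotation was one of these 6, which gave 9 probe sets of 31099 on the array, and 6 genes of 14217 that are named by a single symbol. Grm2, Grm3, Grm4 and Grm7 had 1 probe set each, Grm5 had 2 and Grm8 had 3. All 9 were among the 27035 probe sets kept by a filter on low signals.

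The tissue came from adult female Long-Evans rats, and 24 arrays were analysed. There were 6 arrays of ovariectomized and adrenalectomized (OVX/ADX) rats, 6 of ovariectomized (OVX) rats and 12 of gonadally intact, proestrous rats. According to the study's methods, the OVX and OVX/ADX rats had been primed with estradiol benzoate, which the intact rats had not, so gland removal and hormone priming cannot be told apart. The intact arrays have 2 kinds of title, 6 with a bare number and 6 with the word Intact, and these are called number-named and Intact-named here. In each of the 4 array sets, 3 arrays were labelled paced mated, from females that controlled their contacts with a male, and 3 were chamber-exposed, from females placed in the same chamber without a male. The labels do not say whether the Intact-named arrays come from the same rats as the number-named ones, so p-values measure only the spread between these arrays. Of the OVX/ADX arrays, 2541 and 2530 carry numbers from the series that names intact arrays, and the other 4 are numbered from 4123 to 4126. Array 2541, labelled paced mated, also stood apart in genes of the anterior pituitary. Their median percentile among the probe sets of the array was 95.3 there and 35.3 to 38.1 on the other OVX/ADX arrays. The part of such tissue in the receptor values was not tested. On the number-named arrays, genes of the anterior pituitary were lower on the arrays labelled paced mated, which is opposite to the direction the study describes for pituitary hormone genes in intact rats. The mating labels were kept as deposited, paced mated and chamber-exposed stand for those labels throughout, and the sign of every mating difference on the number-named arrays rests on them.

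Metabotropic glutamate receptors are receptors coupled to G proteins that set how excitable a neuron is and how much transmitter a terminal releases. Group I receptors, here Grm5, act through Gq and phospholipase C and sit mostly on the receiving side of the synapse. Group II (Grm2 and Grm3) and group III (Grm4, Grm7 and Grm8) act through Gi/o, lower cyclic AMP and sit mostly on terminals, and Grm3 is also made by astrocytes. In the midbrain these receptors tune glutamate and GABA input to dopamine neurons.

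The signals are log2 values deposited by the authors. Their lowest value per array fell into 3 ranges, which are taken here as 3 separate normalization runs, although no label names the runs. It was 3.38 to 3.43 on the OVX/ADX arrays, 2.31 to 2.39 on the OVX arrays, 2.30 to 2.39 on the Intact-named arrays and 3.58 to 3.65 on the number-named arrays. The OVX and Intact-named arrays were therefore taken as a shared run, within which OVX was tested against intact. Levels from different runs are set side by side only as percentiles among all non-control probe sets of the same array. The tissue in the runs also differed in regional markers. Markers of cortex and hippocampus neurons had a median percentile of 75.1 to 85.4 per array on the 12 arrays of the shared run and 38.2 to 63.8 on the other 12, and markers of midbrain dopamine neurons had 29.4 to 68.7 on the shared run and 64.7 to 82.2 on the others. In such bulk tissue, fewer cells of a type and less RNA per cell cannot be told apart.

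**Figure D1:**
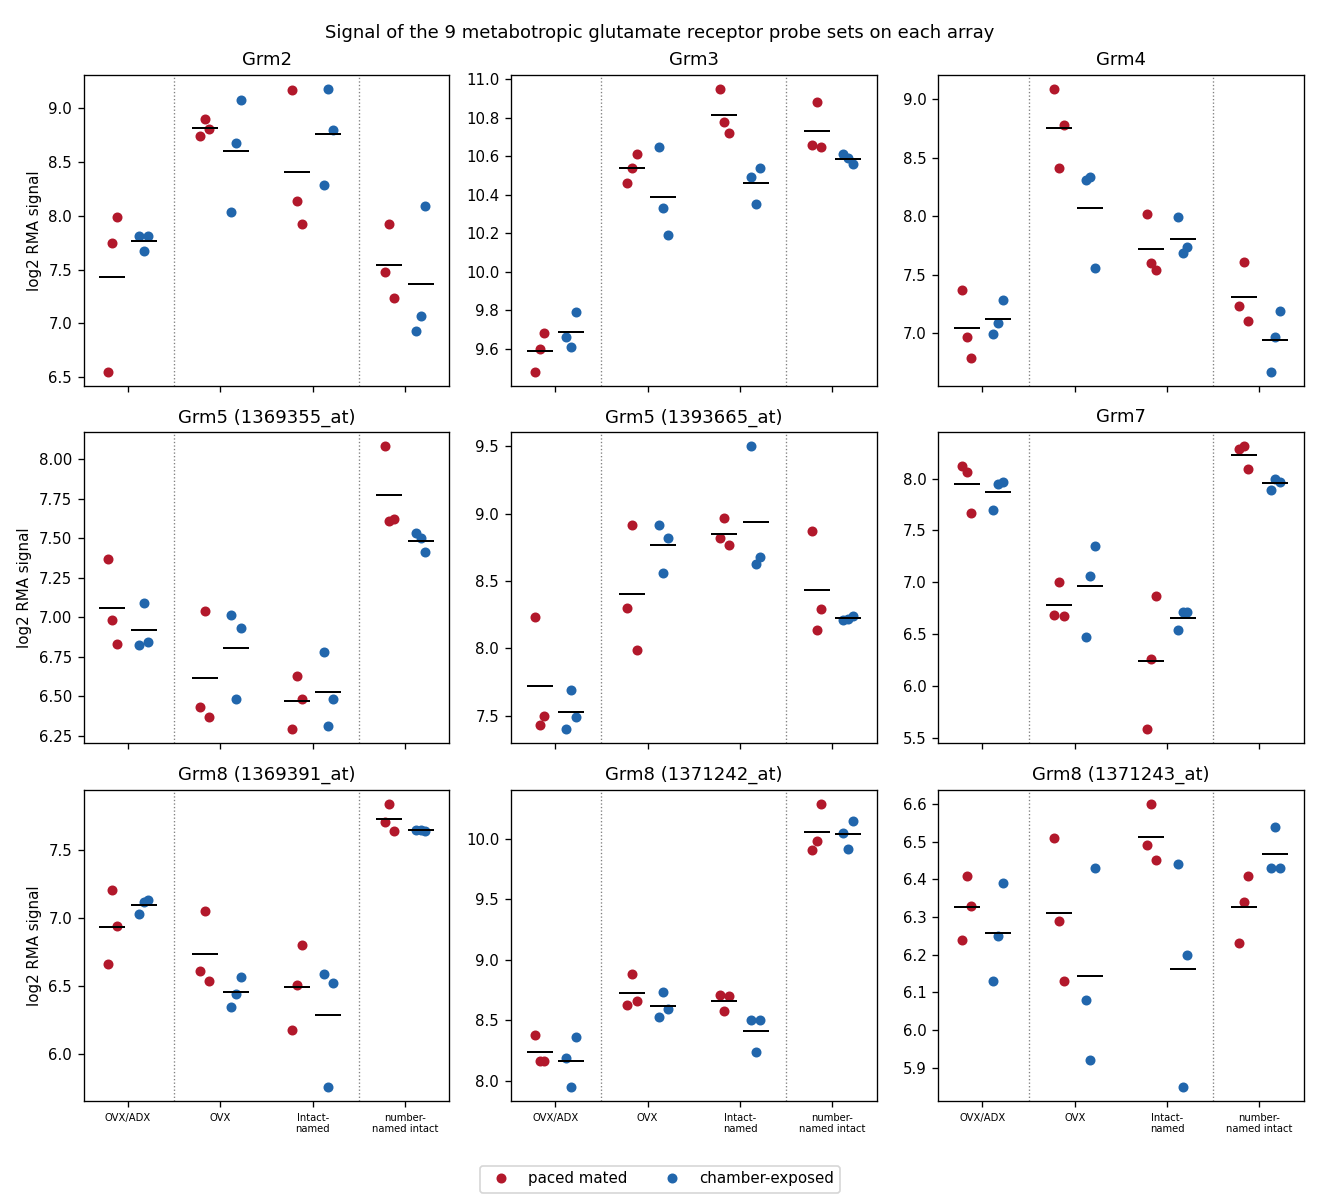
Log2 RMA signal (vertical axis) of the 9 probe sets on each of 24 arrays, by array set (horizontal axis). Red points are paced mated arrays, blue points are chamber-exposed arrays, short black lines are means of 3 arrays, and dotted lines separate normalization runs, across which signals are not comparable. Grm4 is highest on OVX arrays within the shared run, and Grm2 is spread widely in every set.

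The main question of the study was whether paced mating alters midbrain gene expression. Among the metabotropic glutamate receptors, no probe set passed the test for mating in any array set. The count was 0 of 9 in OVX/ADX rats, where 0% of all probe sets were called, 0 of 9 in OVX rats (0% of all), 0 of 9 on Intact-named arrays (0.0148% of all) and 0 of 9 on number-named arrays (0.0444% of all). Over the 4 array sets together, with the set as a term, it was again 0 of 9 (0% of all). The test was limma with Benjamini-Hochberg adjustment over all 27035 probe sets at a threshold of 0.05. At an unadjusted p under 0.05 there were 667 probe sets in OVX/ADX rats, with 0 receptors among them. The same limit gave 654 in OVX rats, 2163 on Intact-named arrays, 2523 on number-named arrays and 1134 over the 4 sets, with 1 receptor in each. With so few calls among all probe sets, the absence of receptors from them is no result about the receptors. The members' values by group follow, in the order of receptor groups. Where the mating groups of a set do not overlap, this is given as a description. The share of all probe sets without such overlap was not counted, so it is no result about the receptors.

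Grm5, the group I receptor, is read by the probe sets 1393665_at and 1369355_at. On OVX/ADX arrays, 1393665_at had 8.23, 7.43 and 7.50 in paced mated rats and 7.40, 7.69 and 7.49 in chamber-exposed rats. The first of these values, from array 4123, stood apart from the other 5. On OVX arrays the same probe set had 8.30, 8.92 and 7.99 in paced mated and 8.92, 8.56 and 8.82 in chamber-exposed rats, a log2 difference of −0.36 (SE 0.23) with a 95% interval of −0.90 to 0.17. The groups overlapped, and the lowest 2 values were both from paced mated rats. On Intact-named arrays it had 8.82, 8.97 and 8.77 in paced mated and 9.50, 8.63 and 8.68 in chamber-exposed rats, where array Intact-2 was the high value. On number-named arrays it had 8.87, 8.14 and 8.29 in paced mated and 8.21, 8.22 and 8.24 in chamber-exposed rats, where array 2543 was the high value. In these 2 sets of intact rats the difference was −0.08 (SE 0.23) on Intact-named and 0.21 (SE 0.17) on number-named arrays. The paced mated and chamber-exposed groups thus overlapped in every set. The other probe set, 1369355_at, rose and fell with 1393665_at from array to array. After each set's mean was subtracted, the deviations of the probe sets correlated at r = 0.90 over 24 arrays, and at 0.85 to 0.94 within each set of 6, as a description of arrays that share library and tissue piece. Both were highest on array 2543 among the number-named arrays and on array 4123 among the OVX/ADX arrays. On the number-named arrays 1369355_at had 8.08, 7.61 and 7.62 in paced mated and 7.53, 7.50 and 7.41 in chamber-exposed rats. These groups did not overlap, with a difference of 0.29 (SE 0.13; limma adjusted p = 0.537), which was 0.14 without array 2543. That array also had the highest median percentile of cortex and hippocampus markers in its set, 63.8 against 42.9 to 49.9, and of scaffold and partner proteins, 86.3 against 78.5 to 80.3, and their part in its Grm5 values was not tested.

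Grm2, a group II autoreceptor of glutamate terminals, was the most variable of the 6 genes by the spread within a set in 3 of the 4 sets. Its SD was 0.52 on OVX/ADX arrays, 0.36 on OVX arrays, 0.54 on Intact-named arrays and 0.47 on number-named arrays (n = 6 each). These were larger than the SDs of 99.3%, 95.9%, 97.7% and 98.7% of all probe sets in the same sets, whose medians were 0.0956, 0.123, 0.156 and 0.096. On OVX arrays it came after Grm4 (SD 0.52) and Grm5 (1393665_at, SD 0.38). The signals of Grm2 were 6.55, 7.75 and 7.99 in paced mated and 7.81, 7.67 and 7.81 in chamber-exposed OVX/ADX rats. In OVX rats they were 8.74, 8.90 and 8.81 in paced mated and 8.04, 8.68 and 9.08 in chamber-exposed. The Intact-named arrays had 9.17, 8.14 and 7.92 in paced mated and 8.29, 9.18 and 8.80 in chamber-exposed rats, and the number-named arrays had 7.48, 7.92 and 7.24 in paced mated and 6.93, 7.07 and 8.09 in chamber-exposed rats. The mating groups overlapped in each set. The 95% intervals of the paced minus chamber-exposed difference reached from −1.14 to 0.47 in OVX/ADX rats, from −0.35 to 0.78 in OVX rats, from −1.17 to 0.48 on Intact-named arrays and from −0.53 to 0.90 on number-named arrays. They were the widest of the 9 probe sets in every set except OVX, where that of Grm4 was wider. Changes of either sign within these bounds remain compatible with these arrays.

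Grm3, the other group II receptor, was among the steadier members. On Intact-named arrays it had 10.95, 10.78 and 10.72 in paced mated rats and 10.49, 10.35 and 10.54 in chamber-exposed rats. All 3 paced mated values lay above the chamber-exposed ones, by 0.36 on the log2 scale (SE 0.10, 1.28-fold), with an unadjusted p of 0.0101 in limma and an adjusted p of 0.473. On number-named arrays it had 10.66, 10.88 and 10.65 in paced mated and 10.61, 10.59 and 10.56 in chamber-exposed rats. The groups did not overlap there either, and the difference was 0.15 (SE 0.08; limma adjusted p = 0.611), or 0.07 without array 2538. In OVX rats it had 10.46, 10.54 and 10.61 in paced mated and 10.65, 10.33 and 10.19 in chamber-exposed rats, and in OVX/ADX rats it had 9.48, 9.60 and 9.68 in paced mated and 9.66, 9.61 and 9.79 in chamber-exposed rats. In both of these sets the groups overlapped, with a difference of −0.10 (SE 0.08) in OVX/ADX and 0.15 (SE 0.12) in OVX. Over the 4 sets the difference was 0.14 (SE 0.06), positive in 3 of 4 sets, and did not pass the test (limma adjusted p = 0.969). The Intact-named arrays differed by mating label in markers too. Those of striatum neurons were higher on paced mated arrays for 5 of 5 genes (median 0.55) and those of hypothalamus neurons for 7 of 8 (median 0.34). Those of oligodendrocytes were lower for 5 of 5 (median −0.09). None of these genes passed the test, and their part in the receptor values was not tested.

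Grm4, a group III receptor best known from the terminals of cerebellar granule cells, had its largest mating difference in OVX rats. Its signals were 9.09, 8.41 and 8.78 in paced mated and 8.31, 8.34 and 7.56 in chamber-exposed OVX rats. All paced mated values were above all chamber-exposed ones, and the difference was 0.69 (SE 0.25, 1.61-fold) with a 95% interval of 0.10 to 1.27. It did not pass the test, with a limma p of 0.0269 and an adjusted p of 1. Without OVX-6 the difference was 0.43. In OVX/ADX rats the signals were 7.37, 6.97 and 6.79 in paced mated and 6.99, 7.09 and 7.28 in chamber-exposed. The Intact-named arrays had 8.02, 7.60 and 7.54 in paced mated and 7.99, 7.69 and 7.74 in chamber-exposed rats, and the number-named arrays had 7.23, 7.61 and 7.10 in paced mated and 6.67, 6.97 and 7.19 in chamber-exposed rats. In these 3 sets the groups overlapped. The mating difference in OVX rats minus that on the Intact-named arrays of the same run was 0.77 (SE 0.32) for Grm4, and it did not pass the test of the difference itself (limma adjusted p = 0.988). None of the receptors passed that test (0 of 9), which called 0.0074% of all probe sets. At an unadjusted p under 0.05 it gave 1341 probe sets, with Grm4 as the 1 receptor. Markers of cerebellum neurons ran the same way in OVX rats. All 6 of 6 measured were higher on the paced mated arrays, by a median of 0.97, and none of them passed the test. Other lists were one-sided as well. Markers of striatum neurons were higher for 5 of 5 (median 0.22), of oligodendrocytes for 5 of 5 (0.17) and of thalamus neurons for 7 of 8 (0.20). Those of midbrain dopamine neurons were lower for 9 of 11 (−0.18), and none of these passed. The array with the highest Grm4, OVX-1, also had a median percentile of 77.4 for the cerebellum markers, against 26.6 to 31.5 on the other OVX arrays. The part of these tissues in the Grm4 values was not tested.

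Grm7, the group III receptor found at the release sites of terminals, had 8.29, 8.31 and 8.09 in paced mated and 7.89, 8.0 and 7.97 in chamber-exposed rats on the number-named arrays. The groups did not overlap, and the difference of 0.27 (SE 0.08, 1.21-fold) had the smallest unadjusted p of the 9 probe sets in any mating comparison, 0.00768, with a limma adjusted p of 0.306. On the Intact-named arrays, also of intact rats, the difference had the opposite sign and a wide error, at −0.42 (SE 0.29), with signals of 5.58, 6.26 and 6.87 in paced mated and 6.54, 6.71 and 6.71 in chamber-exposed rats. Without Intact-1 it was −0.09. In OVX rats the signals were 6.68, 7.0 and 6.67 in paced mated and 6.47, 7.06 and 7.35 in chamber-exposed, and in OVX/ADX rats they were 8.12, 8.06 and 7.67 in paced mated and 7.70, 7.95 and 7.97 in chamber-exposed. The groups overlapped in these 3 sets. The number-named arrays differed by mating label in regional markers as well. Markers of the anterior pituitary had a median percentile of 39.8 to 79.9 on the paced mated arrays and 93.4 to 94.5 on the chamber-exposed arrays, with 8 of 8 lower on the arrays labelled paced mated and 1 of them past the test. Markers of midbrain dopamine neurons were also lower there for 11 of 11 genes, by a median log2 difference of −0.37. Those of cortex and hippocampus neurons were higher for 10 of 10 (median 0.18), those of thalamus neurons for 8 of 8 (median 0.23) and those of hypothalamus neurons for 8 of 8 (median 0.13), and none of these genes passed the test. Of the receptor probe sets 8 of 9 had higher values there, where Grm5 and Grm8 enter with several probe sets each. The share of all probe sets with higher values was not counted, so this is no result about the receptors. The part of the tissues read by these markers in the receptor values on these arrays was not tested.

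Grm8, the remaining group III receptor, was read by 3 probe sets. For 1371242_at, which had the highest mean signal of the 3, the paced minus chamber-exposed difference was 0.06 (SE 0.12) in OVX/ADX rats, 0.11 (SE 0.10) in OVX rats, 0.25 (SE 0.11) on Intact-named and 0.02 (SE 0.11) on number-named arrays. On the Intact-named arrays its signals were 8.71, 8.58 and 8.70 in paced mated and 8.50, 8.24 and 8.50 in chamber-exposed rats, which did not overlap (limma adjusted p = 0.628). Likewise 1371243_at had 6.49, 6.60 and 6.45 in paced mated and 6.44, 5.85 and 6.20 in chamber-exposed rats on those arrays, without overlap (limma adjusted p = 0.63). The other, 1369391_at, overlapped there, with 6.18, 6.51 and 6.80 in paced mated and 6.59, 5.76 and 6.52 in chamber-exposed rats. On number-named arrays 1371243_at ran the other way, with 6.23, 6.34 and 6.41 in paced mated and 6.43, 6.54 and 6.43 in chamber-exposed rats. The difference was −0.14 (SE 0.07; limma adjusted p = 0.583). These groups did not overlap either, so this probe set separated in opposite directions in the sets of intact rats, by narrow gaps. The nearest values were 6.45 and 6.44 on Intact-named arrays and 6.41 and 6.43 on number-named arrays. Its percentiles were 32.1 to 43.5 on Intact-named and 34.0 to 38.2 on number-named arrays, under the floor of silent genes in both. All 3 probe sets had their lowest Intact-named value on the same chamber-exposed array, Intact-4. Without it the Intact-named difference was 0.16 for 1371242_at and 0.20 for 1371243_at.

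**Figure D2:**
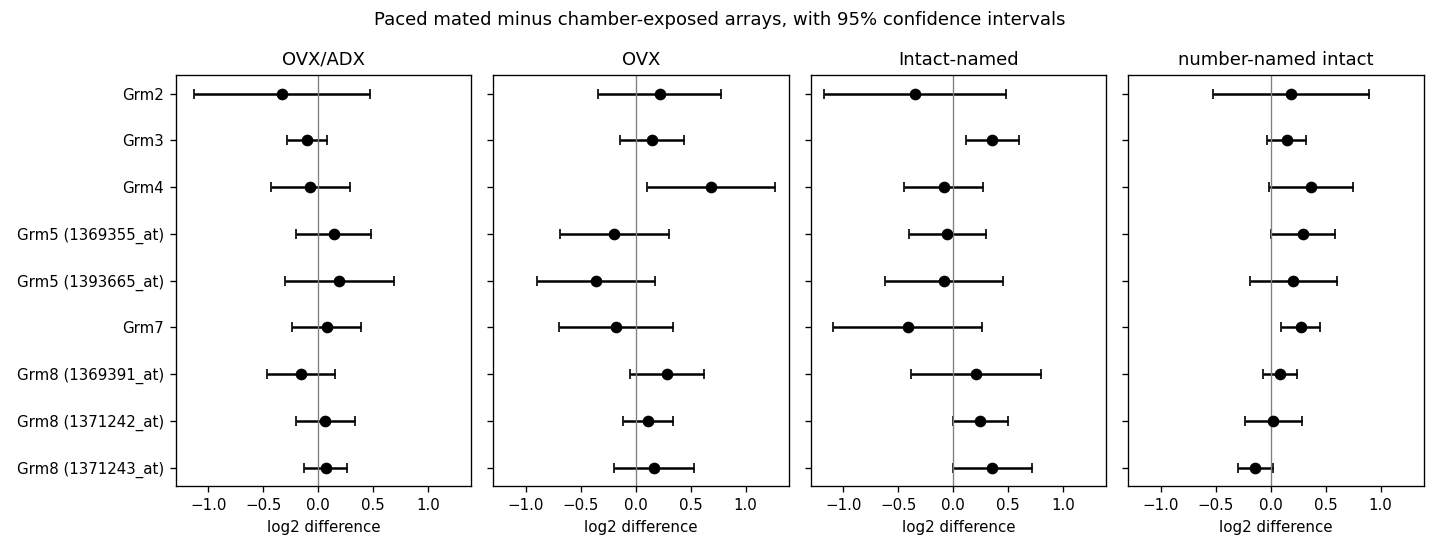
Paced mated minus chamber-exposed difference in log2 signal (horizontal axis) for each probe set (vertical axis), in 1 panel per array set. Points are limma estimates from 3 arrays against 3 and bars are 95% confidence intervals, and the intervals that exclude 0 are those of Grm4 in OVX, Grm3 on Intact-named and Grm7 on number-named arrays, none of which passed the adjusted test.

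The second question was the influence of the glands. Within the shared run, 0 of 9 receptor probe sets passed the test of OVX against intact rats with the mating label as a term, where 388 probe sets, or 1.44% of all, did. At an unadjusted p under 0.05 there were 5672 probe sets, with 1 of the receptors among them. This was Grm4. On OVX arrays its lowest signal was 7.56, its median 8.38 and its highest 9.09, against 7.54, 7.72 and 8.02 on the Intact-named arrays. On 5 of the 6 OVX arrays Grm4 lay above all 6 Intact-named arrays, and only OVX-6 lay among them. The means were 8.42 ± 0.51 in OVX and 7.76 ± 0.20 in Intact-named rats (SD, n = 6 each). The difference was 0.65 (SE 0.19, 1.57-fold) with a 95% interval of 0.24 to 1.06, and it did not pass the test (limma adjusted p = 0.0968). Without OVX-6 it was 0.81 and passed (limma adjusted p = 0.0314), and without OVX-1 it was 0.54 and did not (limma adjusted p = 0.154). Among chamber-exposed arrays alone the difference was 0.26, with a limma adjusted p of 0.597.

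Regional markers also differed between these arrays, and they did not all follow Grm4 from array to array. All 8 of 8 thalamus markers were higher on OVX arrays, by a median of 1.15 on the log2 scale, with Slc17a6, the vesicular glutamate transporter of thalamic and midbrain neurons, past the test (1.69, SE 0.35, limma adjusted p = 0.0394). All 6 of 6 cerebellum markers were higher too, by a median of 0.93, with Zic1, a transcription factor of granule cells, past the test (0.92, SE 0.15, limma adjusted p = 0.0226). Their median percentile per array was 26.6 to 77.4 on OVX arrays and 19.6 to 23.9 on Intact-named arrays. The 77.4 was on OVX-1, the array with the highest Grm4, and the other OVX arrays had 26.6 to 31.5. For thalamus markers OVX-1 had 70.9, within the 63.0 to 73.1 of the Intact-named arrays. Array OVX-6, with the lowest Grm4 of the OVX arrays, also had their lowest thalamus value, 64.4, against 70.9 to 87.5 on the other OVX arrays and 63.0 to 73.1 on the Intact-named arrays. Markers of cortex and hippocampus neurons had lower values on OVX arrays for 8 of 10 genes, 1 of which passed the test, and those of striatum neurons for 5 of 5, none of which passed. Markers of midbrain dopamine neurons had higher values on OVX arrays for 10 of 11 genes, by a median of 0.27, and none passed. The part of these tissues in the Grm4 difference was not tested. The titles of the OVX and Intact-named arrays also carry different prefixes, so a difference in handling that follows the prefix cannot be told apart from gland removal.

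**Figure D3:**
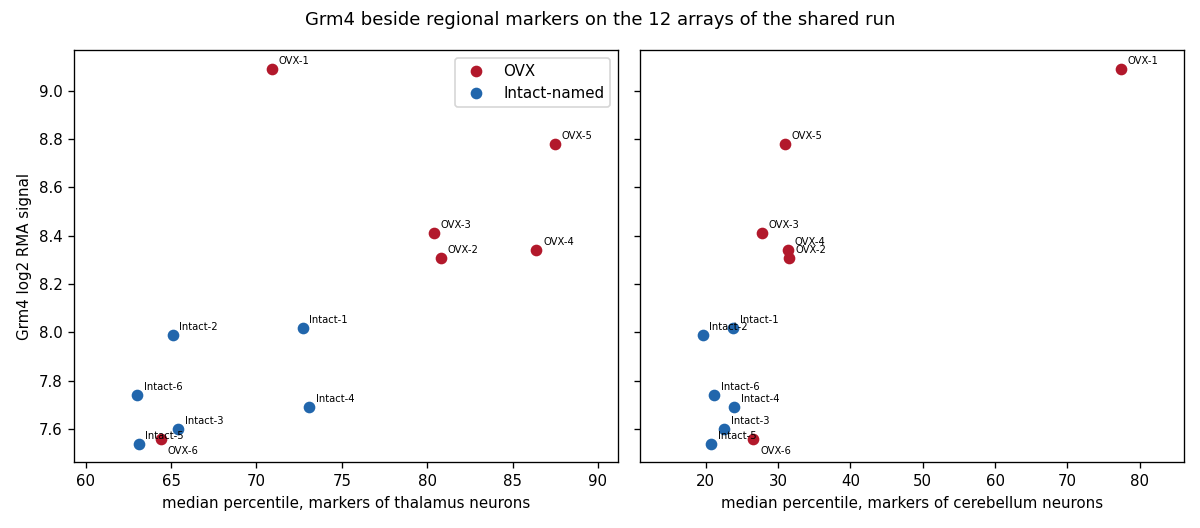
Log2 RMA signal of Grm4 (vertical axis) against the median percentile of thalamus and cerebellum markers (horizontal axes) on the 12 arrays of the shared run, with OVX in red and Intact-named in blue. OVX-1 has the highest Grm4 signal (9.09) and the highest cerebellum value (77.4), with a thalamus value of 70.9, among the Intact-named arrays. OVX-6 has a Grm4 signal of 7.56 and a thalamus value of 64.4, among the Intact-named arrays in both.

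The other receptors differed less or less steadily. Grm7 was 0.43 higher in OVX (SE 0.20; limma adjusted p = 0.241), with a lowest, median and highest signal of 6.47, 6.84 and 7.35 on OVX arrays against 5.58, 6.62 and 6.87 on Intact-named arrays, and the lowest of these, Intact-1, stood below all others. Without Intact-1, which also stood apart in midbrain dopamine and hypothalamus markers, the Grm7 difference was 0.27. Grm3 differed by −0.17 (SE 0.08; limma adjusted p = 0.258), with 10.46 ± 0.17 in OVX and 10.64 ± 0.22 in Intact-named rats (SD, n = 6 each). Grm2 differed by 0.12 (SE 0.24), with a 95% interval of −0.40 to 0.65 that leaves room for a change of either sign. The Grm5 probe sets had opposite signs, at −0.31 (SE 0.17) for 1393665_at and 0.21 (SE 0.14) for 1369355_at. For Grm8 the differences were 0.13 (SE 0.07) for 1371242_at, 0.20 (SE 0.15) for 1369391_at and −0.11 (SE 0.11) for 1371243_at. Of the 9 differences 6 were positive, with a median of 0.13, beside a median of 0.00 over all probe sets.

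**Figure D4:**
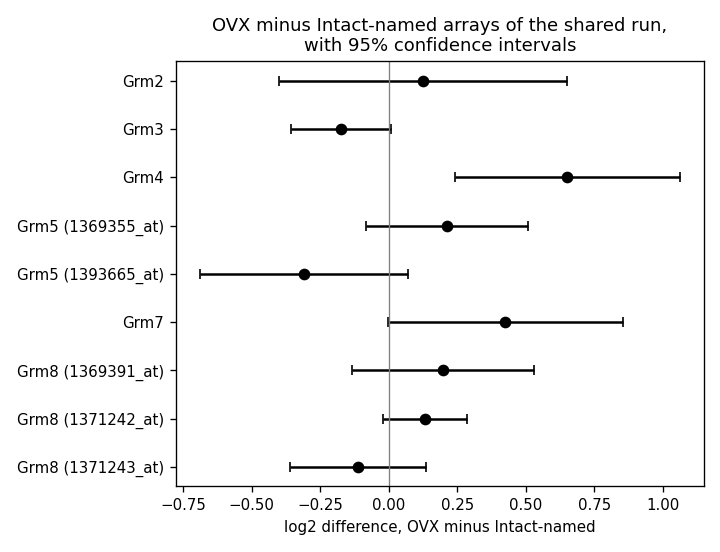
OVX minus Intact-named difference in log2 signal (horizontal axis) for each probe set (vertical axis), from 6 arrays against 6 of the shared run, with the mating label as a term in limma. Bars are 95% confidence intervals, and only that of Grm4, 0.24 to 1.06, excludes 0.

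Genes of the receptors' pathway were set beside them from a list of 44 genes, of which 36 were measured and tested. None passed the test for mating in any array set or over the 4 sets. In OVX against intact rats, 1 of 36 passed, beside the 1.44% of all probe sets, and the median difference of the 36 was −0.04. The gene was Adcy8, an adenylyl cyclase that calcium activates and that Gi/o signaling opposes, which was 0.57 higher in OVX (SE 0.11; limma adjusted p = 0.0363). Of scaffold and partner proteins of the receptors 0 of 11 passed, with values such as −0.31 (SE 0.07; limma adjusted p = 0.0641) for Dlgap1 and −0.31 (SE 0.12; limma adjusted p = 0.174) for Homer1. In the Gq and phospholipase C branch, 0 of 8 passed, and Gna11, the G protein subunit that Grm5 can use, differed by −0.37 (SE 0.09; limma adjusted p = 0.0702). None of 5 genes of glutamate uptake and exchange passed. Grm6, the receptor of retinal ON bipolar cells, had 3 probe sets at percentiles of 2.74 to 27.7 on all arrays.

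Across runs, only percentiles can be set side by side, and the receptors' counts are read beside the share of all probe sets. Between the 12 arrays of the shared run and the other 12, 2 of 9 receptor probe sets did not overlap, where 41.2% of all probe sets did not. Grm4 was at percentiles 56.6 to 77.4 on the shared run and 40.0 to 56.5 on the others, and Grm7 at 28.8 to 53.8 on the shared run and 58.2 to 68.6 on the others. Between Intact-named and number-named arrays, both of intact proestrous rats, 6 of 9 did not overlap, near the 63.7% of all probe sets. Grm2 and Grm4 were higher on Intact-named arrays, and Grm7, Grm5 (1369355_at) and Grm8 (1371242_at and 1369391_at) were lower. Between OVX/ADX and number-named arrays, 3 of 9 did not overlap, where 45.1% of all probe sets did not. These 3 were lower on the OVX/ADX arrays. Grm8 (1371242_at) was at 65.2 to 72.5 on OVX/ADX arrays and 86.4 to 90.4 on number-named arrays, Grm3 at 87.0 to 90.0 on OVX/ADX and 92.2 to 94.0 on number-named arrays, and Grm8 (1369391_at) at 45.4 to 53.5 on OVX/ADX and 54.4 to 57.4 on number-named arrays. Gland status did not differ between the Intact-named and number-named arrays, while the normalization run and the regional markers did. In the other comparisons the groups differed in run, in regional markers and, wholly or in part, in gland removal, which cannot be told apart. On OVX/ADX arrays, mean percentiles were higher than on number-named arrays for 8 of 9 hypothalamus and 7 of 8 thalamus markers. The same held for 1 of 12 midbrain dopamine and 0 of 8 anterior pituitary markers. No test was made across runs.

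The order of the array sets by median percentile was not shared among the receptors. For Grm3 it was number-named (92.7), Intact-named (92.3), OVX (91.7) and OVX/ADX (88.2), and neighbouring sets overlapped at each step. For Grm4 it was OVX (68.2), Intact-named (58.5), OVX/ADX (50.8) and number-named (47.1), with a gap only between Intact-named and OVX/ADX, whose nearest arrays were at 56.6 and 56.5. For Grm7 it was OVX/ADX (65.7), number-named (60.5), OVX (46.4) and Intact-named (43.1), with a gap only between number-named and OVX. For Grm2 it was OVX (73.3), Intact-named (69.9), OVX/ADX (62.7) and number-named (50.3), with overlap at each step. For Grm8 (1371242_at) number-named (87.7) stood apart from OVX (71.6), Intact-named (70.0) and OVX/ADX (69.0), which overlapped. Its probe set 1371243_at ran otherwise, with Intact-named (40.8), OVX/ADX (40.1), OVX (37.1) and number-named (36.2) overlapping at each step, so the Grm8 probe sets disagreed and no order is given for Grm8 as a gene. The Grm5 probe sets disagreed across runs too. The order for 1393665_at was Intact-named (72.9), OVX (72.2), number-named (63.4) and OVX/ADX (58.2), and for 1369355_at it was number-named (53.4), OVX/ADX (49.1), OVX (44.2) and Intact-named (41.2), so no order of sets is given for Grm5 as a gene.

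**Figure D5:**
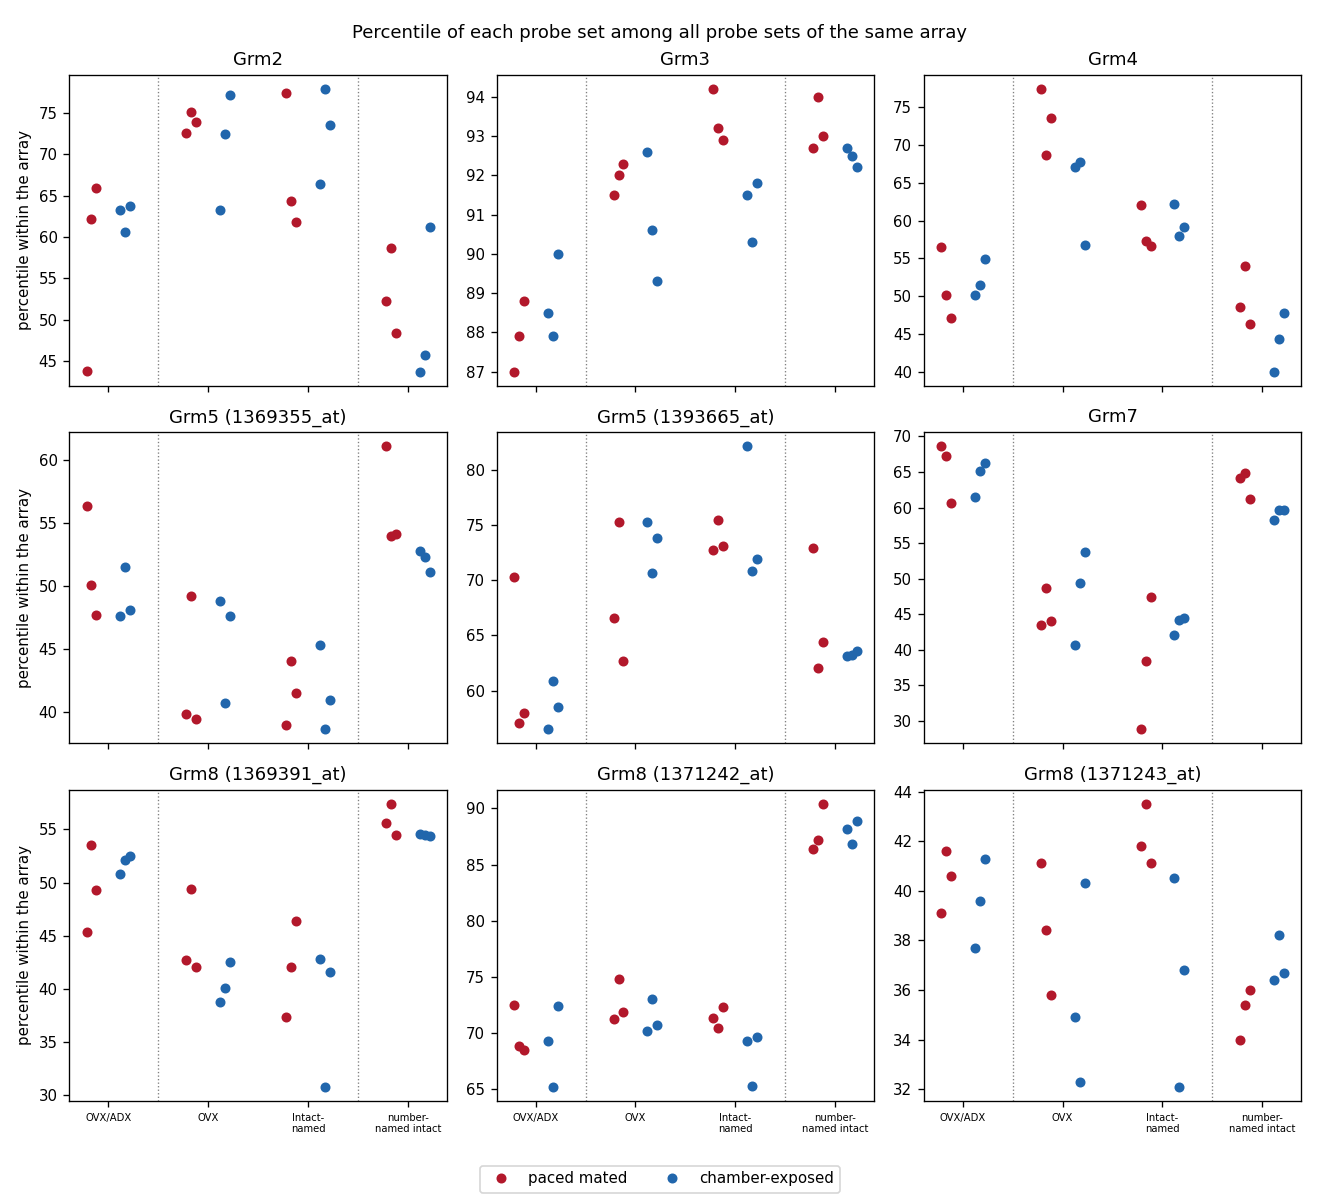
Percentile of each of the 9 probe sets among all non-control probe sets of the same array (vertical axis), by array set (horizontal axis), with paced mated arrays in red and chamber-exposed arrays in blue. Dotted lines separate normalization runs. Grm7 lies at 53.8 or lower on all 12 arrays of the shared run and at 58.2 or higher on the others, and Grm8 (1371242_at) is highest on the number-named arrays.

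Genes whose array-to-array pattern was most like that of each receptor were taken by the Pearson correlation of deviations from the set means over 24 arrays, as a description. For Grm2 they were Nit2 (r = 0.75) and Utp25 (0.73). For Grm3 they were Snapc2 (0.84) and Egln3 (0.83), an oxygen-sensing prolyl hydroxylase. Grm4 had Epb41l3 (0.83) and Nkain1 (0.80). Grm5 (1393665_at) had Dio3, the deiodinase that inactivates thyroid hormone (0.78), and Gas6, a ligand of receptor tyrosine kinases (0.77). Grm7 had the highest values, with Akap6, an anchor of protein kinase A (0.91), and Actr2-ps1 (0.91). Grm8 (1371242_at) had Hipk4 (0.86) and Sars2 (0.81). The likeness was not even over the sets. Grm4 and Epb41l3 had r = 0.97 in OVX and 0.11 on Intact-named arrays, and Grm2 and Nit2 had 0.88 on number-named and 0.19 on OVX arrays. Between the receptors, the strongest opposite pattern was that of Grm3 and Grm7, with r = −0.59 over 24 arrays. It was −0.47 in OVX/ADX, −0.88 in OVX and −0.72 on Intact-named arrays, and 0.76 on number-named arrays.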

How the data were processed

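Midbrain RNA was measured on 24 Affymetrix rat arrays. The authors deposited log2 signals per probe set, which the submitters' processing notes credit to RMA and Affymetrix Expression Console 1.4. The methods of the paper give GCRMA and GeneSpring instead, and values of that kind were not analysed here. The signals were used as deposited. From the lowest signals, RMA was taken to have been run in 3 separate batches of arrays, so levels were not tested across them. Gene names came from the platform annotation.

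After 57 control probe sets were left out, a probe set was kept if its signal reached the array's 20th percentile on 3 or more arrays. Mating was tested within each array set and over the sets, OVX against Intact-named arrays with mating as a term, and the difference of these mating effects, with limma 3.58.1 in R 4.3.3 and Benjamini-Hochberg adjustment over all probe sets kept. The scripts were tested on simulated data. A gene outside the members is read from the probe set that had its highest mean. All member probe sets are named, with the 2 genes most like each member and pathway genes past the threshold. The pathway genes named without passing, and the marker genes named, were chosen after their values were seen. The members and the lists were chosen with earlier results of these data known. The number of arrays limits the precision, and RMA signals come with no detection calls.

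Alternatives covered the filter, normalization, the variance model, array weights, which arrays enter, the replicate number as a block, and leaving out each array.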

Additional observations from a re-analysis of the deposited data

Results flagged for a closer look

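In each set of 6 arrays, the gap of the highest or lowest signal to its neighbour was compared with the range of the set. Of 36 such tests 6 passed Dixon's critical value, where chance passes about 1 in 20 independent tests. These tests were not independent. The 6 came from 3 arrays, and both Grm5 probe sets, which rose and fell together, were among them. The share of all probe sets that pass was not counted, so the 6 are no result about the receptors. Array 2543 was far above the other number-named arrays for both Grm5 probe sets, with 8.87 for 1393665_at and 8.08 for 1369355_at, and it also had their highest cortex and hippocampus marker value (63.8 against 42.9 to 49.9) and scaffold and partner protein value (86.3 against 78.5 to 80.3), whose part was not tested. Array 4123 was far above the other OVX/ADX arrays for Grm5 (1393665_at, 8.23) and far below them for Grm2 (6.55). Array 2538 was far above the other number-named arrays for Grm3 (10.88) and Grm8 (1369391_at, 7.84). All 3 arrays were labelled paced mated.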

How the results depend on the processing

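The count of 0 receptor probe sets called held under the alternatives run for filter, normalization, variance model, array weights and choice of arrays, with 1 exception. In OVX against intact rats it was 0 to 1 when 1 array was left out, and the 1 was Grm4 without OVX-6. The count of 2 receptor probe sets apart between the shared run and the other arrays was the same on quantile-normalized signals. Both scales keep the ranks within each array, so this count could not have differed and is no check. Counts over all probe sets moved more. OVX against intact gave 388, but 84 with a plain test, 719 with array weights, 1 on chamber-exposed arrays, and 0 (without OVX-4) to 443 when 1 array was left out. Mating gave 0 with a plain test on number-named arrays and 112 with array weights, against 12, and on Intact-named arrays 1016 with array weights and 597 with the 24 arrays fitted as 8 group means, against 4. With the title number as a replicate block, OVX against intact gave 375 calls and 0 receptors. Same-numbered arrays had r of −0.07 to 0.20, over 0.1 for 4 of 6 numbers, and they also share the mating label. Of the 6 numbers 2 had their best match in the same number, and the numbers were not taken as pairs.

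Of 1163 values for single receptor probe sets under alternatives, 1115 kept sign and side of the threshold, 47 changed sign and 1 became past it, and no value that changed sign had passed the test. The cause was not tested. The sign of the mating difference changed with array weights for Grm5 (1369355_at) on Intact-named arrays (0.045), Grm8 (1369391_at) in OVX/ADX rats (0.0055), and over the 4 sets for Grm2 (0.0065) and Grm7 (0.077). It changed for Grm4 on OVX/ADX arrays 4123 to 4126 alone (0.14), and for Grm5 (1393665_at) over the 12 intact arrays (0.061). Grm2 in OVX against intact rats was −0.16 on chamber-exposed arrays. When 1 array was left out, the mating difference in OVX/ADX rats ranged from −0.61 to 0.10 for Grm2, −0.24 to 0.054 for Grm4, −0.014 to 0.26 for Grm5 (1369355_at), −0.066 to 0.34 for Grm5 (1393665_at), −0.013 to 0.22 for Grm7 and −0.042 to 0.16 for Grm8 (1371242_at). In OVX rats it ranged from −0.065 to 0.46 for Grm2 and −0.42 to 0.018 for Grm7. On Intact-named arrays it ranged from −0.24 to 0.0054 for Grm4, −0.16 to 0.075 for Grm5 (1369355_at), −0.24 to 0.20 for Grm5 (1393665_at) and −0.060 to 0.36 for Grm8 (1369391_at). On number-named arrays it ranged from −0.033 to 0.55 for Grm2, −0.012 to 0.35 for Grm5 (1393665_at) and −0.096 to 0.097 for Grm8 (1371242_at). Over the 4 sets it ranged from −0.14 to 0.036 for Grm2, −0.077 to 0.050 for Grm5 (1393665_at) and −0.11 to 0.026 for Grm7. OVX against intact ranged from −0.015 to 0.28 for Grm2, and the difference of mating effects from −0.089 to 0.56 for Grm7 and −0.081 to 0.34 for Grm8 (1369391_at).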
